A study of Mus musculus with 28 samples.

Results

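Whether IL4 alone alters where the glucocorticoid receptor (GR) sits on macrophage chromatin was examined by comparing the 3 IL4 GR ChIP-seq libraries with the 2 vehicle libraries made in the same batch. These are 5 of the 28 samples of the series, chosen by assay, treatment and the batch given in the sample titles, and all 8394 GR peaks of the deposited count table were considered. Bone marrow of C57BL/6 males, 8 to 10 weeks old, was differentiated into macrophages over 5 days in medium that held L-cell conditioned medium (10%) and bovine serum (20%), alike in all groups. One group then received IL4 at 10 ng/ml for 24 h and the other the vehicle, whose composition the labels do not give. For reference, batch 2 also holds 2 libraries of cells given corticosterone (Cort, 500 nM) and 2 of cells given dexamethasone (Dex, 100 nM), and batch 1 holds 2 vehicle, 2 Cort and 2 Dex libraries. All cells were crosslinked with disuccinimidyl glutamate and formaldehyde before GR was precipitated. No group received a GR ligand together with IL4. The labels do not say that the serum was stripped of steroids, so the absence of ligand from the vehicle and IL4 cultures rests on no label, nor do they say that libraries came from separate animals, so p-values measure only the spread between these libraries.

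GR is a nuclear receptor that is held in the cytoplasm by chaperones, moves to the nucleus when a glucocorticoid binds it, and occupies enhancers that are mostly already open in the cell type. In macrophages it induces anti-inflammatory and metabolic genes such as Tsc22d3, Fkbp5, Per1 and Klf9. IL4 acts through its own receptor and the transcription factor STAT6, which opens and activates another set of enhancers during alternative polarization. Acetylation of histone H3 at lysine 27 (H3K27ac) marks active enhancers and promoters.

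Some steroid-responsive GR peaks lie at promoters, where the sequence can be shown. The following are the 250 bases before the annotated start, in transcript orientation, from RefSeq promoter windows (GRCm38.p6, the assembly that mm10 stands for), with the bases inside the GR peak in capitals. C1qc, C1qb, Slc10a6 and Map3k6 were the promoter peaks with the highest level among those that steroid raised in batch 1 and that cover at least 100 of these bases, and Nlrp3 is shown for its IL4 values, which were known when it was chosen.
C1qc: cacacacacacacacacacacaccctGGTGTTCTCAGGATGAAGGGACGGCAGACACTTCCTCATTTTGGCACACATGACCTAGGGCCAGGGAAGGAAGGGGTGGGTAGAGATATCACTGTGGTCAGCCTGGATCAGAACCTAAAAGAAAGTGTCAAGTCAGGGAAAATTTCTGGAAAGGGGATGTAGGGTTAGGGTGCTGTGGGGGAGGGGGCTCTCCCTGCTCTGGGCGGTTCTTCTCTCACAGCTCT
C1qb: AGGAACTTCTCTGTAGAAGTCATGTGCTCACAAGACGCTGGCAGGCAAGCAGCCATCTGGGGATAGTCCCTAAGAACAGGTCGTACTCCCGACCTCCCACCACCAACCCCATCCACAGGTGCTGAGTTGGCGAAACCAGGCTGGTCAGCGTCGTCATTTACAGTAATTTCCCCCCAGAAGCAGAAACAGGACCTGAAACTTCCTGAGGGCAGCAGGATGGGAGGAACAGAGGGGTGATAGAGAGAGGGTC
Slc10a6: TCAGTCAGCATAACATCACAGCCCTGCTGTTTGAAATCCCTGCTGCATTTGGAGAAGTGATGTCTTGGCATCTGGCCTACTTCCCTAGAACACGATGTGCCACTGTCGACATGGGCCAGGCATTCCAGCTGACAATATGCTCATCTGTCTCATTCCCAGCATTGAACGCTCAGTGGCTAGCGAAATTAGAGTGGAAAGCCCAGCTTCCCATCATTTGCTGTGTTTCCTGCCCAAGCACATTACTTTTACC
Map3k6: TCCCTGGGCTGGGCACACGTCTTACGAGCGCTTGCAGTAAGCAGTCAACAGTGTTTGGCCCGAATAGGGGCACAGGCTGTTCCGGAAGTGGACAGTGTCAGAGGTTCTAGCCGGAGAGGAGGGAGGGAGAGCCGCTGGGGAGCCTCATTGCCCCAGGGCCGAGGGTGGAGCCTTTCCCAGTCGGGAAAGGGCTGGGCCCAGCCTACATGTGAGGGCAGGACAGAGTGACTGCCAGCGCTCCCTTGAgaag
Nlrp3: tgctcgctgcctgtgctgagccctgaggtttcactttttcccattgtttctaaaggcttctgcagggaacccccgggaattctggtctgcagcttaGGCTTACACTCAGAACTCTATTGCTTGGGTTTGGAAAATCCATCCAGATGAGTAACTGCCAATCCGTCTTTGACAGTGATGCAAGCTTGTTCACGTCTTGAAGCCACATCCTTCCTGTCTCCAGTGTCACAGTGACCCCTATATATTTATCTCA
The printed stretches are chr4:136892915-136893164 on the minus strand for C1qc, chr4:136886201-136886450 on the minus strand for C1qb, chr5:103629404-103629653 on the minus strand for Slc10a6, chr4:133240568-133240817 on the plus strand for Map3k6 and chr11:59541319-59541568 on the plus strand for Nlrp3. The single arm of a glucocorticoid response element, TGTTCT on either strand, began 222 bases before the start of C1qc, 178 before that of C1qb and 164 before that of Slc10a6, and was absent from the other 2 stretches. The Slc10a6 stretch also held a match to TTCNNNNGAA, the spacing that STAT6 prefers, which began 170 bases before the start and shared 4 bases with the single arm there. Among the 27 promoter windows of 300 bases under a steroid-raised GR peak, 11 held the single arm (40.7%), against 54 of 289 under any GR peak (18.7%) and 19.0% of all 32851 windows. The full element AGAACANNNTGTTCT, searched on both strands like the others, was in none of these 27 and in 3 of all windows, and TTCNNNNGAA was in 4 of the 27 (14.8%) and in 6.95% of all. The single arm is contained in the full element. These matches are descriptions of letters in a window.

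The 5 libraries held 1583176 to 1981582 reads in peaks, but 92.9% to 96.2% of these lay in the 1% of peaks with the most reads. Outside those peaks the vehicle libraries held 110335 and 76064 reads and the IL4 libraries 113178, 106626 and 97784. Vehicle replicate 4 was the shallowest there, and its log2 CPM (counts per 1000000 of the scaled library size) correlated less with vehicle replicate 3 (Pearson r = 0.827 across peaks, which are not independent) than replicate 3 did with the IL4 libraries (0.889 to 0.892). Among the batch 2 steroid libraries, Cort replicate 4 stood apart, with 415731 reads outside the top peaks. In the H3K27ac libraries, 7 of 8 macrophage marker genes had a tested H3K27ac peak, with a median of 20.4 CPM per kb in vehicle, against medians of 0 to 0.431 for fibroblast, neutrophil, lymphoid, mast cell and erythroid markers, 3.58 for osteoclast and 7.92 for dendritic markers. Single macrophage markers ran from 0 to 36.3. The highest single marker was 23.3 for lymphoid, 21.6 for dendritic, 20.4 for erythroid, 18.6 for osteoclast, 13.1 for fibroblast, 4.89 for neutrophil and 0 for mast cell markers.

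At promoters under steroid-raised GR peaks, IL4 libraries mostly fell in or near the vehicle range. The C1qc and C1qb promoters, which belong to genes of the first complement component, had normalised levels of 13.6 and 19.0 CPM in the vehicle libraries and of 11.1, 13.8 and 22.5 in the IL4 libraries at C1qc, against 39.5 to 70.8 in the 4 batch 2 steroid libraries. At C1qb the vehicle libraries read 11.8 and 11.4 CPM and the IL4 libraries 9.83, 13.8 and 11.3. The 2 groups overlapped at both. Slc10a6, a transporter of sulfated steroids, had 8.29 and 5.07 CPM in vehicle and 6.76, 13.8 and 5.64 in IL4, with the highest single value in IL4 replicate 2. Map3k6, a kinase of the stress-activated pathway, had 5.33 and 10.1 CPM in vehicle and 9.22, 10.1 and 12 in IL4. All 4 had lower levels with IL4 than with steroid in the edgeR quasi-likelihood test, with log2 fold changes of -1.84 (C1qc), -1.95 (C1qb), -2.36 (Slc10a6) and -1.76 (Map3k6) and adjusted p between 0.00157 and 0.00904. At Nlrp3, the sensor of an inflammasome, the promoter peak had 6 and 0 reads in vehicle, 7, 15 and 16 in IL4 and 19 to 24 with steroid. In CPM these were 3.55 and 0 for vehicle, 4.30, 9.43 and 11.3 for IL4 and 10.6 to 14.7 for steroid, so that IL4 lay above both vehicle libraries and reached the lower end of the steroid range. The log2 fold change against vehicle (1.86 ± 0.69 SE) had an adjusted p of 0.598. Over the 14 promoter peaks of named genes that steroid raised in batch 1, the median log2 fold change of IL4 against vehicle was 0.20, from -0.11 to 1.86. Of the 14, 0 were called against vehicle (0.0% of all tested peaks were). Lower than with steroid were 7 of the 14, beside 6.46% of all tested peaks.

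Across the genome, no GR peak was called different between IL4 and vehicle. Of the 8394 peaks, 5900 passed the filter on low counts and were tested, and 0 of them had an adjusted p under 0.05 (0.0%), the smallest being 0.598. In the same fit and against the same 2 vehicle libraries, Cort had 145 peaks called higher and 10 lower (2.63%). Dex had 323 called higher and 157 lower (8.14%). In a fit of batch 2 alone each of the 2 steroids had 0 called. At an unadjusted p under 0.05, 144 peaks were higher with IL4 (2.44%) and 345 lower (5.85%), and DESeq2 on the same design also called 0, with 62 higher and 305 lower unadjusted. All 3 IL4 libraries lay above both vehicle libraries in 636 peaks (10.8%) and below both in 631 (10.7%). The median log2 fold change was 0.02, with quartiles of -0.58 and 0.51. Without vehicle replicate 3, which leaves vehicle replicate 4 as a lone sample assumed to vary like the other groups, 103 peaks were called, 3 higher and 100 lower.

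These values bound a change only loosely. The median tested peak had a mean of 7.8 reads over the 5 libraries, and 62.6% of tested peaks had a mean under 10. The 95% interval of the log2 fold change reached a median of 1.39 to either side, and it lay wholly within 1 log2 unit of 0 in 106 peaks (1.80%) and within 2 units in 50.9%. In the 1475 peaks with the most reads that reach was 0.997, and in the 1475 with the fewest 1.83. At most sites the interval from these 5 libraries does not exclude a change by 1 log2 unit.

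**Figure D1:**
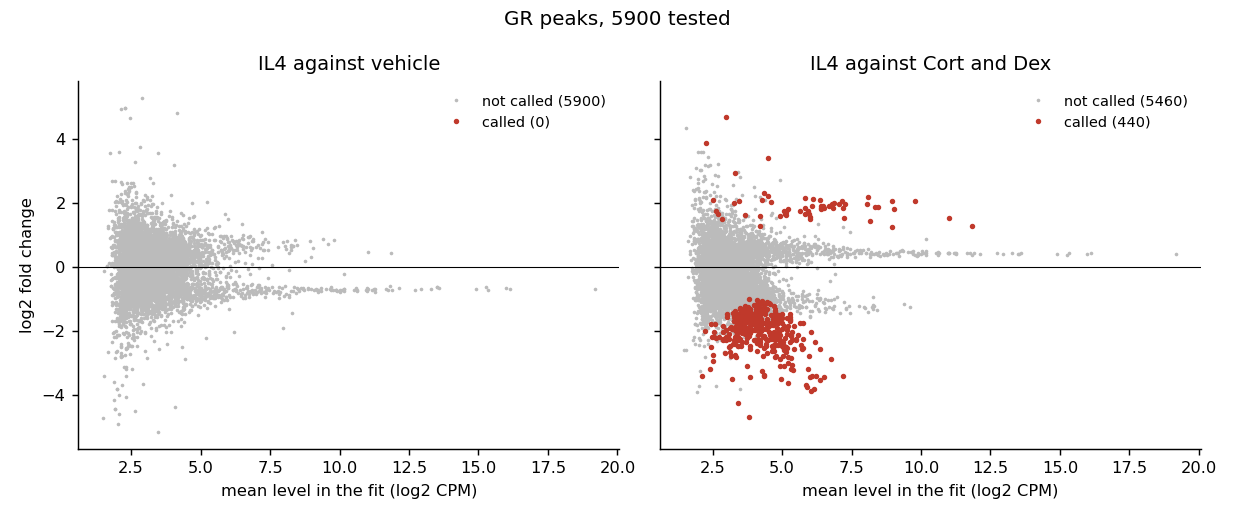
Each point is 1 of 5900 GR peaks, with its mean level in the fit on the x axis (log2 CPM) and its fitted log2 fold change on the y axis, for IL4 against batch 2 vehicle (left) and against batch 2 Cort and Dex (right). No peak is called on the left, while 440 peaks, in red, are called on the right (7.46%), 381 of them lower with IL4 and 59 higher. The comparison on the left is less precise, with 2 vehicle libraries and a median SE of 0.648. On the right there are 4 steroid libraries and a median SE of 0.507.

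At 4 classical glucocorticoid target genes, GR signal with IL4 overlapped that of vehicle. The peak in Fkbp5 (chr17:28420136-28420595 in mm10), the gene of a co-chaperone of GR, had 20 and 14 reads in the vehicle libraries, 7, 23 and 18 in the IL4 libraries and 147 to 277 in the steroid libraries. In CPM these were 11.8 and 17.7 for vehicle and 4.30, 14.5 and 12.7 for IL4, so the 2 groups overlapped and all steroid libraries stood above them. The log2 fold change against vehicle was -0.48 ± 0.46 (SE, 95% interval -1.46 to 0.51), and against the mean of Cort and Dex -3.40 ± 0.41 (adjusted p = 0.000415). Zbtb16, a zinc finger repressor gene, had 5.92 and 13.9 CPM in vehicle and 4.30, 12.6 and 9.86 in IL4 at its strongest peak (chr9:48723543-48724003, in the gene), against 83.7 to 123 with steroid. Its IL4 values also overlapped those of vehicle, with a log2 fold change of -0.09 (95% interval -1.13 to 0.94). Cd163, the haemoglobin scavenger receptor, had its peak 30.9 kb from the gene (chr6:124273132-124273718) with 20.7 and 20.3 CPM in vehicle and 14.1, 20.1 and 21.1 in IL4. Here the steroid libraries read only 28.7 to 41.8 CPM, and the difference of IL4 from steroid was not called (-0.88 ± 0.29, adjusted p = 0.0901). Dusp1, a phosphatase that switches off MAP kinases, had 2.96 and 8.87 CPM in vehicle and 6.76, 6.28 and 4.93 in IL4, all within the vehicle range, at chr17:26512593-26512862.

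At 4 other target genes the mean of the IL4 libraries was higher than that of vehicle. Every IL4 library was above both vehicle libraries at Tsc22d3 and Ddit4, while the groups overlapped at the strongest peaks of Klf9 and Per1. Tsc22d3, which encodes the anti-inflammatory leucine zipper protein GILZ, had 3 and 1 reads in vehicle, 7, 13 and 10 in IL4 and 53 to 78 in the steroid libraries at chrX:140513382-140513747, 25.8 kb from the gene. All 3 IL4 libraries (4.30, 8.17 and 7.05 CPM) were above both vehicle libraries (1.78 and 1.27) and far below every steroid library (32.5 to 40.7). The log2 fold change against vehicle was 1.98 ± 0.62 (95% interval 0.66 to 3.30), with an unadjusted p of 0.00637 and an adjusted p of 0.598. Against steroid it was -2.45 ± 0.40 (adjusted p = 0.00166). The batch 1 vehicle mean at this peak was 5.06 CPM, within the range of the IL4 libraries. A second Tsc22d3 peak, chrX:140511450-140511525, had 0 reads in both vehicle libraries and 4, 3 and 2 in IL4, which is at least 1.60-fold higher when vehicle is set at the limit of 3 reads over the group that a count of 0 allows. Klf9, a Kruppel-like factor, showed the same at a peak of its own: 0 and 0 reads in vehicle and 3, 8 and 3 in IL4 at chr19:23135948-23136067, at least 2.49-fold higher, against 11 to 20 with steroid. Its strongest peak (chr19:23134921-23135263) had 2.37 and 5.07 CPM in vehicle and 5.53, 11.3 and 2.82 in IL4, where the groups overlapped. Per1, a repressor of the circadian clock, had 5.33 and 15.2 CPM in vehicle and 9.22, 22.6 and 17.6 in IL4 at chr11:69099265-69099591, 0.479 kb from its start, and 62.2 to 99.6 with steroid, where only the lower vehicle library stood below all IL4 libraries (log2 0.75, 95% interval -0.36 to 1.86). Ddit4, an inhibitor of mTORC1 signalling, had 2 and 1 reads in vehicle and 5, 4 and 3 in IL4, a ratio of 2.14 with a 95% counting interval of 0.577 to 11.8. None of these peaks was called against vehicle, and the second peaks of Tsc22d3 and Klf9 were singled out by their small p.

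**Figure D2:**
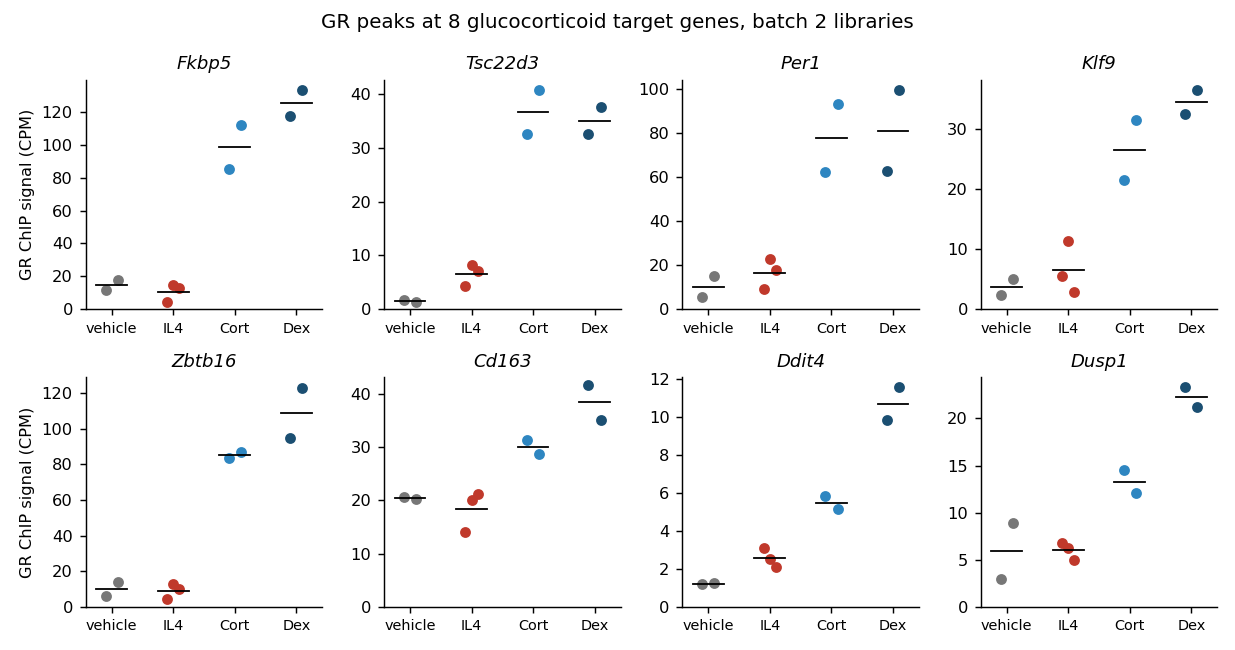
GR ChIP signal (CPM, y axis from 0) at the strongest GR peak of 8 glucocorticoid target genes in the batch 2 libraries; points are libraries (2 vehicle, 3 IL4, 2 Cort, 2 Dex) and lines are group means. All IL4 points lie below every steroid point in each of the 8 panels, and at Tsc22d3 and Ddit4 all 3 IL4 points lie above both vehicle points.

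The ligand-responsive sites as a whole were defined in batch 1 alone, in libraries that are not among the 5 compared. Steroid raised 751 of 3975 peaks tested in batch 1 (18.9%), with a median log2 rise of 1.84. In batch 2 the summed level of these 751 peaks was 4934 and 5540 CPM in the vehicle libraries and 5139, 6220 and 6060 in the IL4 libraries, against 14478 to 19709 in the 4 steroid libraries. Vehicle and IL4 ranges overlapped, and every steroid library stood above both. The median log2 fold change of IL4 against vehicle over the 751 peaks was 0.12, beside 0.02 over all tested peaks, and 0 peaks were called, with 34 higher and 13 lower at an unadjusted p under 0.05. All 3 IL4 libraries were above both vehicle libraries in 118 of them (15.7%, against 10.8% of all tested peaks) and below both in 70 (9.3%, against 10.7%). Scaling by total reads in place of TMM (the trimmed mean scaling used throughout) moved the median of all tested peaks to 0.48 and that of the 751 peaks to 0.61. Of the intervals of these peaks, 78.7% lay within 2 log2 units of 0, beside 50.9% for all tested peaks, and 6.1% within 1.

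Against steroid, the same peaks separated. Over all tested peaks, 440 were called between IL4 and the mean of Cort and Dex (7.46%), 701 between IL4 and Cort (11.9%, with 56 or 0.949% higher and 645 or 10.9% lower) and 434 between IL4 and Dex (7.36%, with 56 or 0.949% higher and 378 or 6.41% lower). Without IL4 replicate 1 the 440 calls were 278, and without Cort replicate 4, the library that stood apart, 630. The count against Cort alone depended strongly on the libraries and the fit: it was 0 in a fit of batch 2 alone, 114, 150 and 148 without IL4 replicate 1, 2 or 3, 305 and 304 without vehicle replicate 3 or 4 and 173 without Cort replicate 4. The count against Dex alone was 172 in a fit of batch 2 alone, 240 without IL4 replicate 1, 285 without IL4 replicate 3 and 656 without Cort replicate 4. Of the 751, 328 were lower with IL4 than with the mean of batch 2 Cort and Dex (43.7%, beside 6.46% of all tested peaks), 0 were higher, and the median difference was -1.29 on the log2 scale. All 4 steroid libraries stood above all 3 IL4 libraries in 536 of them (71.4%, beside 14.8%). The 5 peaks furthest below steroid, among those of at least median level, lay near Stard8, Fos, the agouti gene a, Hif3a and St3gal5. The agouti peak (chr2:155052627-155053086, 1.61 kb from the gene) had 5.92 and 12.7 CPM in vehicle and 4.30, 13.2 and 9.86 in IL4, against 104 to 185 with steroid. The Hif3a peak (chr7:17058151-17058601), in a gene of the hypoxia-inducible factor family, had 11.2 and 12.7 CPM in vehicle and 4.92, 8.80 and 10.6 in IL4, against 94.7 to 138 with steroid. All 3 IL4 libraries were below both vehicle libraries at Hif3a, with a log2 difference of -0.56 ± 0.42 that was not called. At St3gal5 (chr6:72162105-72162494), a sialyltransferase gene, vehicle read 7.69 and 11.4 CPM, IL4 6.14, 8.80 and 4.93 and steroid 70.9 to 115.

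**Figure D3:**
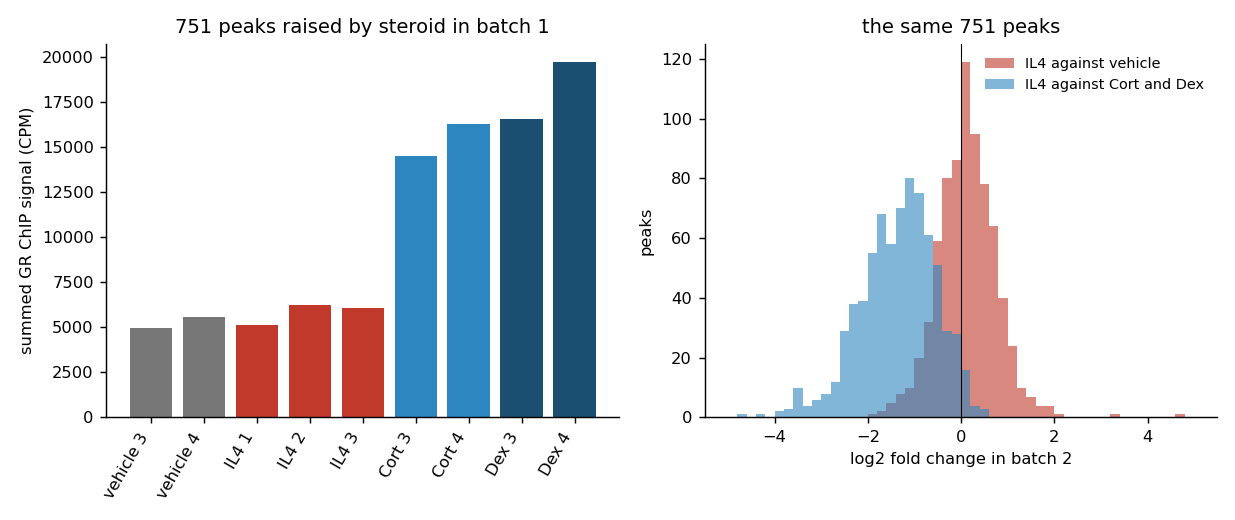
Left, the summed GR ChIP signal (CPM) of the 751 peaks that steroid raised in batch 1, with 1 bar for each batch 2 library; the vehicle and IL4 bars lie between 4934 and 6220 and the steroid bars between 14478 and 19709. Right, histograms of the log2 fold change of the same peaks, centred near 0 for IL4 against vehicle (median 0.12) and at -1.29 for IL4 against Cort and Dex.

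Within the ligand-responsive set, single sites lay on both sides of 0. The highest fold changes with IL4, apart from the second Tsc22d3 peak, were at the peaks nearest to Thbs1, Lrp12, Elovl5 and Klf6. Thbs1, which encodes the matrix protein thrombospondin 1, lay 146 kb from its peak (chr2:117965877-117966020), which had 0 and 1 reads in vehicle, 7, 9 and 6 in IL4 and 8 to 17 with steroid. The ratio of IL4 to vehicle was 11.8, with a 95% counting interval of 1.90 to 485. At Elovl5, a fatty acid elongase gene 5.12 kb from chr9:77911943-77912245, the vehicle libraries had 4 and 1 reads and the IL4 libraries 15, 12 and 10, all 3 above both vehicle libraries (log2 1.98 ± 0.55, unadjusted p = 0.00291). At Klf6, another Kruppel-like factor, vehicle had 1 and 2 reads and IL4 7, 8 and 9. The lowest fold changes were near Fos, Hs6st1, Srfbp1, Stard8 and St6gal1. The peak 8.71 kb from Fos (chr12:85464963-85465184), a subunit of AP-1, had 6 and 3 reads in vehicle and 2, 0 and 2 in IL4, below both vehicle libraries, against 25 to 40 with steroid. Its log2 fold change was -1.98 ± 0.71 against vehicle (unadjusted p = 0.0147) and -4.26 ± 0.54 against steroid (adjusted p = 0.00045). At Stard8 (chrX:99026145-99026427), the vehicle libraries had 6 and 1 reads and the IL4 libraries 1, 2 and 1, where vehicle replicate 4 and the IL4 libraries read alike (1.27 against 0.614 to 1.26 CPM). The 5 peaks with the largest steroid rise in batch 1, near Mindy3, Ly86, Irgm1, Sh3kbp1 and Enpp6, had log2 fold changes with IL4 of -0.65, 0.10, 0.27, 0.38 and -0.95, with unadjusted p from 0.118 upward.

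Peaks with the smallest p included sites where no steroid change was called in batch 1. The 10 highest by unadjusted p, among peaks of at least median level over all 15 GR libraries, lay near Npc1, Elovl5, Olfr1274, Fmn1, Ninj2, Runx1, Zmiz1, Tsc22d3, Pfkl and Pag1, with log2 fold changes of 1.40 to 1.98. At all 10 the batch 1 vehicle mean was above that of batch 2 vehicle, as at Npc1 (6.25 against 2.75 CPM) and Runx1 (7.43 against 3.97). At Fmn1 it was 7.60 CPM, above the IL4 mean of 7.42, and at the others it was below the IL4 mean. Npc1, the lysosomal cholesterol exporter, had 5 and 2 reads in vehicle and 20, 14 and 17 in IL4 at a peak in the gene (chr18:12224031-12224216), against 11 to 15 with steroid. Runx1, a macrophage lineage factor, had 4.14 and 3.80 CPM in vehicle and 10.4, 8.17 and 16.9 in IL4 at chr16:92620817-92621029 in the gene, above all 4 steroid libraries (6.14 to 6.97 CPM). H3K27ac rose with IL4 over both peaks, by 0.62 ± 0.13 at Npc1 (adjusted p = 0.004) and by 0.72 ± 0.23 at Runx1 (adjusted p = 0.0341) on the log2 scale. Zmiz1, a coregulator gene 145 kb from chr14:25313185-25313351, had 5 and 2 reads in vehicle and 11, 24 and 14 in IL4, and H3K27ac there rose by 1.37 ± 0.29. Fmn1, which encodes formin 1, had 4 and 2 reads in vehicle, 12, 8 and 14 in IL4 and 60 to 78 with steroid. The peak near the olfactory receptor gene Olfr1274 (chr2:90395113-90395192) had 14 and 7 reads in vehicle, 29, 36 and 39 in IL4 and 9 to 16 with steroid, and was the only one of the 10 called against steroid in the higher direction (log2 1.61 ± 0.31, adjusted p = 0.00535). It lay outside any H3K27ac peak. The 10 peaks were picked on the same IL4 values, which favours a call in the higher direction against steroid.

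The 10 lowest by the same rule lay near Lamp1, Zfp825, Rap1b, Zfy1, Vmn1r2, Plcl2, Lyz2, Psap, Adgre1 and Speer4e. The peaks in Psap, Lamp1, Lyz2, Rap1b and Adgre1 had means of only 0.8, 1.4, 3.2, 5.0 and 6.4 reads over the 5 compared libraries, below the median of 7.8, and reached the median level through batch 1. The batch 1 vehicle means there were 56.8, 29.2, 789, 60.2 and 26.9 CPM, against 1.52, 2.75, 4.27, 8.62 and 10.3 in batch 2 vehicle. At 6 of them, Zfp825, Zfy1 (580 kb away), Vmn1r2 (104 kb away), Plcl2, Adgre1 and Speer4e, vehicle replicate 4 was over 2 times vehicle replicate 3 in CPM. The peak near Zfp825, a zinc finger gene, read 30.8 and 77.3 CPM in vehicle and 16.6, 18.9 and 24.0 in IL4. The lysosomal protein gene Lamp1 had 5 and 2 reads in vehicle and 0 in all 3 IL4 libraries at chr8:13173805-13173961, at least 4.37-fold lower. Rap1b, a small GTPase gene, had 12 and 8 reads in vehicle and 4, 0 and 1 in IL4. Lyz2 (lysozyme) had 8 and 3 reads in vehicle and 1, 2 and 2 in IL4, and Adgre1, the macrophage antigen F4/80, had 7 and 13 in vehicle and 5, 4 and 3 in IL4. At Psap (prosaposin) 3 and 1 reads in vehicle stood against 0 in all IL4 libraries, at least 2.49-fold lower.

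In groups of genes near GR peaks, 0 peaks were called in any list, as in the whole table (0.0%). A gene's peaks are those nearest to it within 50 kb. Of 33 glucocorticoid-induced genes, 24 had a GR peak, and of their 56 tested peaks 4 were higher and 0 lower with IL4 at an unadjusted p under 0.05, with a median log2 fold change of 0.08. In this list 20 peaks were lower with IL4 than with steroid (35.7%, beside 6.46% of all tested peaks). Beside the peaks above, Tnfaip3 (A20, an inhibitor of NF-kB) had 5.92 and 2.53 CPM in vehicle and 10.4, 13.2 and 7.05 in IL4 at chr10:19009352-19009614. Of 33 IL4- and STAT6-induced genes, 20 had a GR peak, and of their 28 tested peaks 0 passed even an unadjusted p under 0.05, with a median of 0.15. Pparg, a lipid receptor that supports alternative polarization, had 3.55 and 5.07 CPM in vehicle and 11.7, 7.54 and 5.64 in IL4 at a peak 29.6 kb away (log2 0.99 ± 0.53). Slc7a2, an arginine transporter, had 2.37 and 5.07 CPM in vehicle and 7.37, 5.66 and 4.93 in IL4 at chr8:40851105-40851180, while the H3K27ac peak around it rose by 3.76 ± 0.37 (adjusted p = 1.78e-05). Ch25h, the cholesterol 25-hydroxylase, had 6.51 and 10.1 CPM in vehicle and 4.30, 6.91 and 2.82 in IL4, and Tfec, a factor of the MiT family, 6 and 3 reads in vehicle and 0, 2 and 4 in IL4.

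Of the genes of IL4 receptor signalling, 6 of 15 had a GR peak, and 12 peaks were tested, with 0 higher and 1 lower unadjusted and a median of 0.39. The lower one lay in Jak1, the kinase bound to the receptor (chr4:101172824-101173089), with 12.4 and 6.34 CPM in vehicle and 3.69, 5.03 and 4.93 in IL4. Il4ra, the receptor chain itself, had 3.55 and 2.53 CPM in vehicle and 4.30, 3.77 and 7.05 in IL4 at a peak in the gene. Of 21 genes for GR and its cofactors, 7 had a GR peak, and 15 peaks were tested with a median of -0.39 and none past an unadjusted p under 0.05. Ncoa1, a coactivator, had 7.69 and 7.60 CPM in vehicle and 7.99, 4.40 and 3.52 in IL4, while Hspa8 and Hsp90ab1, the chaperones, had at most 6 reads in any of the 5 libraries. Of 18 macrophage enhancer factors, 11 had a peak, and 3 of 17 tested peaks were higher and 1 lower unadjusted. The 3 higher ones were the Runx1 peak above, one near Atf3 and a second one near Fos, and the lower one was the other Fos peak. Near Fos (chr12:85468786-85468984) vehicle had 6 and 2 reads and IL4 7, 18 and 13, which is the opposite direction to the peak 8.71 kb away. Atf3, a stress-induced factor, had 5.92 and 6.34 CPM in vehicle and 13.5, 13.2 and 12 in IL4. The summed level of these 17 peaks was 68.4 and 87.6 CPM in vehicle and 97.1 to 99.3 in IL4, and the ranges did not overlap. Of the 14 lists with a tested peak, the summed level with IL4 lay above the vehicle range in 2 (these factors and the circadian genes) and below it in 1 (dendritic markers), and the ranges overlapped in 11, beside 10.8% of single tested peaks above and 10.7% below. This is near the share among single peaks.

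The 9 tested peaks of circadian genes, among them Per1, Ciart, Nfil3 and Rora, had a median of 0.60, and their summed level was 48.5 and 49.4 CPM in vehicle and 59.2 to 79.2 in IL4, which did not overlap (one of the 3 lists that separated among 14). No single one passed an unadjusted p under 0.05, and at Rora IL4 replicate 1 held 39 reads, against 13 and 7 in the other two, and Cort replicate 4 held 502. Inflammatory genes had 23 tested peaks, 1 higher (Nlrp3) and 1 lower (Il1b, with 2 and 6 reads in vehicle and 1, 0 and 0 in IL4), with a median of -0.14. Nos2 and Ccl5 of this list had log2 fold changes of 0.98 ± 0.60 and -0.99 ± 0.73. The 71 tested peaks of macrophage identity genes had a median of -0.32, with 0 higher and 4 lower unadjusted, in Lamp1, Lyz2, Adgre1 and Cd14. Of these 71 peaks 16 lay at Adgre1, with a median of -0.86, and 10 at the cathepsin gene Ctsd, with a median of -0.02, so members of the list share genes. Mertk and Spi1 of the same list had medians of 0.44 over 4 peaks and 0.33 at 1 peak. Of 8 tested Cd14 peaks, with a median of 0.17, the 1 lower peak had 2 and 2 reads in vehicle and 0 in every IL4 library. Housekeeping genes had 21 tested peaks with 1 higher and 0 lower and a median of 0.09, the higher one in Actb with 0 and 0 reads in vehicle and 4, 5 and 1 in IL4. Markers of other cell types had few: 4 tested peaks at neutrophil, 3 at dendritic, 3 at osteoclast, 1 at fibroblast, 1 at erythroid and 0 at lymphoid or mast cell markers. The summed level of the 3 dendritic peaks was 59.8 and 109 CPM in vehicle and 39.5 to 47.1 in IL4, most of it at Xcr1 (42.6 and 93.8 CPM in vehicle, 30.1, 30.8 and 33.8 in IL4), and its part in any result was not tested.

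H3K27ac changed widely with IL4, in libraries that are separate from the GR libraries and number 3 per group. Of 59881 tested H3K27ac peaks, 8827 rose (14.7%) and 7711 fell (12.9%), and with the replicate number as a block 13134 rose and 12923 fell. Of the tested GR peaks, 584 lay in an H3K27ac peak that rose with IL4, 731 in one that fell, 2629 in one that was not called and 1952 outside any. At the 584, the median GR log2 fold change was 0.29 and 69.2% of the values were above 0. All 3 IL4 libraries were above both vehicle libraries in 120 of them (20.5%, against 10.8% of all tested peaks) and below both in 29 (5.0%, against 10.7%), and 35 were higher and 4 lower at an unadjusted p under 0.05. At the 731, the median was -0.01, 69 peaks (9.4%) were above and 94 (12.9%) below both vehicle libraries, and 12 were higher and 17 lower unadjusted. At the 2629 the median was 0.18 and 61.1% of the values were above 0. Of the 2629, 336 peaks (12.8%) were above and 186 (7.1%) below both vehicle libraries. At the 1952 outside any H3K27ac peak these shares were 5.7% and 16.5%, which lowers the share above among all tested peaks. No GR peak was called in any of these classes (0.0%). The median at the 584 peaks stayed above that at the 731 in every fit made, and ranged from 0.21 to 0.76. Across the 3944 GR peaks inside a tested H3K27ac peak, the changes in GR and in H3K27ac correlated with r = 0.171 (Spearman coefficient 0.158), a weak relation in sparse counts, over points that share the same 5 GR libraries.

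**Figure D4:**
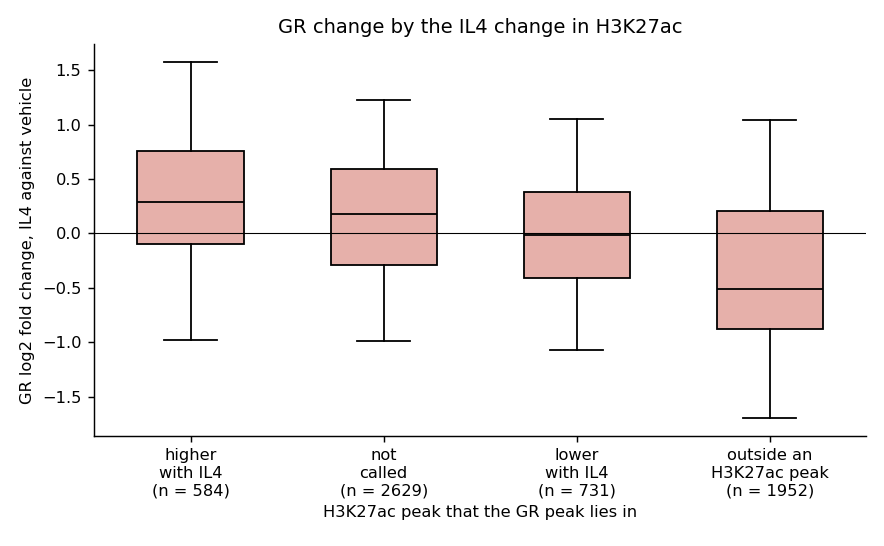
GR log2 fold change of IL4 against vehicle (y axis) for peaks grouped by the IL4 change of the H3K27ac peak they lie in; boxes are quartiles with the median, and whiskers reach the 5th and 95th percentiles. The median is 0.29 where H3K27ac rose, 0.18 where it was not called, -0.01 where it fell and -0.51 outside H3K27ac peaks, and the boxes overlap.

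Single sites with the strongest H3K27ac change were chosen by H3K27ac, after its values were seen, among GR peaks within 50 kb of a gene. They were of at least median level over the 15 libraries, with 1 peak per gene, and gave GR values with and without a difference. The GR peak 14.1 kb from Gda, the guanine deaminase gene (chr19:21376958-21377244), lay where H3K27ac rose by 3.34 ± 0.31 on the log2 scale, and had 5.33 and 6.34 CPM in vehicle and 9.83, 14.5 and 12.7 in IL4. All 3 IL4 libraries were above both vehicle libraries, by 1.09 ± 0.40 (unadjusted p = 0.0176, adjusted p = 0.598). Near the chemokine gene Ccl1 (chr11:82171812-82172073) H3K27ac rose by 3.35 ± 0.52, and GR read 8.88 and 7.60 CPM in vehicle and 9.83, 11.9 and 8.45 in IL4. The groups overlapped there and at Mrgprg, F7 and Hhat, where H3K27ac rose by 3.12, 2.73 and 2.63. Near Mrgprg, GR read 4.74 and 8.87 CPM in vehicle and 7.37, 11.9 and 7.75 in IL4. At F7 it read 2.96 and 16.5 in vehicle and 15.4, 17.6 and 6.34 in IL4. At Hhat it read 2.96 and 6.34 in vehicle and 7.99, 4.40 and 5.64 in IL4. Near Wfs1, an endoplasmic reticulum protein gene, H3K27ac rose by 2.68 ± 0.28, and GR read 6.51 and 3.80 CPM in vehicle and 12.3, 11.3 and 8.45 in IL4. Klf9 and Nfil3, a clock-linked repressor, were of the same kind among the genes named above: H3K27ac rose by 2.39 ± 0.25 and 2.59 ± 0.22 around their GR peaks. Where H3K27ac fell most, GR values lay on either side of vehicle. At Siglece, an inhibitory lectin gene (chr7:43664057-43664374), H3K27ac fell by 2.08 on the log2 scale and GR read 6.51 and 11.4 CPM in vehicle and 6.14, 3.77 and 2.82 in IL4, all below both. At Pid1, H3K27ac fell by 2.28 and GR read 17.8 and 13.9 CPM in vehicle and 3.69, 13.8 and 10.6 in IL4, all below both. Near Zp3, H3K27ac fell by 2.39 and GR overlapped between groups, with 5.92 and 8.87 CPM in vehicle and 9.22, 6.91 and 7.75 in IL4. At Grk4, a receptor kinase gene, H3K27ac fell by 2.04 and the mean GR level was higher with IL4, with 9.47 and 3.80 CPM in vehicle and 5.53, 12.6 and 12.7 in IL4 (log2 0.53 ± 0.51). Near Mex3b, H3K27ac fell by 2.18, and GR read 10.1 and 7.60 CPM in vehicle and 3.69, 10.1 and 5.64 in IL4. Near Tm4sf20, H3K27ac fell by 2.02. GR there read 8.29 and 13.9 CPM in vehicle and 7.37, 3.14 and 6.34 in IL4, all below both. At Hif3a and Fkbp5, both steroid targets, H3K27ac fell with IL4 by 1.78 and 0.93.

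The peaks with lower values mostly lay outside H3K27ac peaks. Of the 345 peaks lower at an unadjusted p under 0.05, 23.8% lay in an H3K27ac peak, against 86.1% of the 144 higher ones and 66.9% of all tested peaks. The 1952 peaks outside H3K27ac peaks had a median of -0.51, with 20 higher and 263 lower unadjusted. The 805 peaks that steroid lowered in batch 1 (20.3%), which hold 195 of the 345, had a median of -0.66 with IL4 in batch 2. The 805 held 95.8% to 98.3% of all reads in peaks of the 5 libraries, against 0.22% to 0.53% in the 751 steroid-raised peaks. The level of the 805 therefore depends closely on the scaling. The median level of the 805 was 24.9 CPM in vehicle replicate 3, 39.3 in vehicle replicate 4 and 23.3, 22.6 and 24.7 in the IL4 libraries. Vehicle replicate 4 stood alone at this scaling. Its TMM factor was 0.399, against 0.864 for vehicle replicate 3 and 0.771 to 1.03 for the IL4 libraries. Without vehicle replicate 4 the median of the 805 was -0.01 and that of the peaks outside H3K27ac 0.02. Without vehicle replicate 3 they were -1.11 and -0.92. The median where H3K27ac rose was 0.35 and 0.40 in these fits, and that of the 751 steroid-raised peaks 0.21 and 0.03. Scaled by total reads with all 5 libraries, the median of the 805 was -0.01 and that of the peaks outside H3K27ac 0.08. At that scaling it was 0.76 where H3K27ac rose and 0.48 over all tested peaks.

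**Figure D5:**
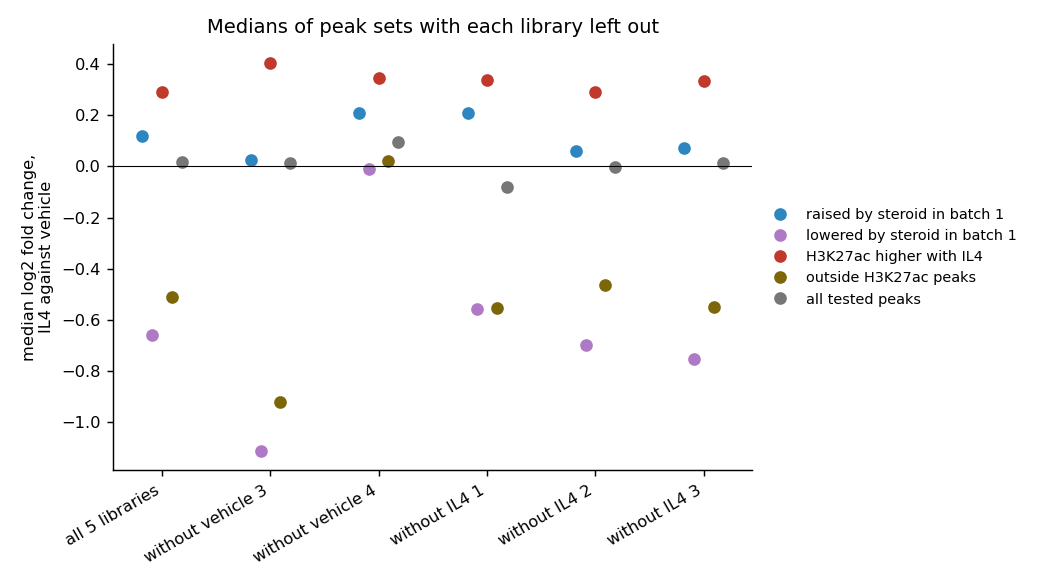
Median log2 fold change of IL4 against vehicle (y axis) for 5 sets of GR peaks, with all 5 libraries and with each left out in turn (x axis). The sets outside H3K27ac peaks and lowered by steroid move from -0.51 and -0.66 to 0.02 and -0.01 without vehicle replicate 4, while the set where H3K27ac rose stays between 0.29 and 0.40.

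The most read-dense sites showed the same dependence. The peak with the most reads (chr2:98666249-98667322), 1035 kb from the nearest named gene, Lrrc4c, took 55.2% to 59.2% of all reads in peaks of each of the 5 libraries, with 1122405 and 1172918 reads in vehicle and 874156, 1095312 and 1061938 in IL4. The 10 densest peaks had fitted log2 fold changes of -0.63 to -0.73. Scaled by total reads, the peaks in Chl1 and near Pak3 of these 10 had log2 fold changes of 0.02, and without vehicle replicate 4 the Chl1 peak had -0.03. With steroid in batch 1 the 10 peaks had log2 changes of -0.80 to -1.0. No input library was compared with the GR libraries here. Whether the reads in these 10 peaks, or in the 805 that steroid lowered, reflect GR binding was not tested.

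In the other direction, 59 peaks were higher with IL4 than with batch 2 steroid (1.0%). Their summed level was 17224 and 14283 CPM in the vehicle libraries, 21981, 23905 and 23780 in the IL4 libraries and 5698 to 8456 with steroid, and 23.7% lay in an H3K27ac peak. Every vehicle and IL4 library stood above every steroid library in this sum, in a set chosen on the IL4 values. Among the 59, 45 belonged to the 805 peaks that steroid lowered in batch 1, whose level depends closely on the scaling. By read number, 8 ranked in the top 1%. The count of 59 became 46 when scaled by total reads and 216 without Cort replicate 4. The peak in Zc3h7a (chr16:11143999-11144343), a zinc finger gene, had 683 and 233 reads in vehicle, 753, 1038 and 1025 in IL4 and 199 to 269 with steroid. In CPM it read 404 and 295 in vehicle and 463, 652 and 722 in IL4, a log2 difference of 0.81 ± 0.31 (unadjusted p = 0.0212). The peak in Il1rapl1 (chrX:87238328-87238453), a synaptic receptor gene, read 109 and 84.9 CPM in vehicle, 124, 136 and 176 in IL4 and 25.5 to 42.4 with steroid. Both lay outside any H3K27ac peak, and both were named after their values were seen.

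By position, medians near genes were close to that of all peaks. The 202 tested peaks overlapping a promoter window had a median log2 fold change of 0.12, with 5 higher and 4 lower at an unadjusted p under 0.05. The 2904 peaks in a gene span had a median of 0.06 and the 1637 within 50 kb of one 0.06. The 1157 peaks farther away had a median of -0.31, with 26 higher and 141 lower.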

How the data were processed

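GR ChIP-seq of 15 libraries and H3K27ac ChIP-seq of 12 were read as raw read counts per peak, deposited by the authors over 1 peak set per assay for which the submitters' processing notes name the mm10 build and, in no order, featureCounts, MACS2, fastp, SAMtools and Bowtie2. Versions, how peaks were merged, whether duplicates were removed and the criterion of a column named filtered are not given in the sources used here. Columns headed C were matched to vehicle by elimination. Peaks hold few reads (a median of 7.8 per tested peak and library among those compared), and the coefficient of variation between libraries beyond counting error was 0.434 in the GR fit, so both limit the precision.

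Counts were fitted with edgeR 4.0.16 in R 4.3.3 (filterByExpr, TMM, quasi-likelihood F test, Benjamini-Hochberg over all tested peaks), over all 15 GR libraries as 7 groups by treatment and batch, and IL4 was compared with batch 2 vehicle and with the mean of batch 2 Cort and Dex. Peaks were called at an adjusted p under 0.05. Standard errors were taken as the log2 fold change, without sign, divided by the root of F, and CPM is per 1000000 of the TMM-scaled library size. Steroid-raised peaks came from a fit of the 6 batch 1 libraries. H3K27ac was fitted over its 12 libraries, and GR peaks were joined to any H3K27ac peak they overlapped. H3K27ac libraries with the same replicate number deviated together (r of 0.268 to 0.678 in 18 pairs, against -0.449 to 0.0406 in 36 others), so the block is given beside its counts. Peaks were named for the nearest of 19937 RefSeq genes. DESeq2 1.42.0, other scalings, filters and each library left out were tried. The fit was tested on simulated data. A ratio of summed reads has an exact 95% interval that, like the limit from 0 reads, covers counting error only.

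Peaks named were the 10 smallest unadjusted p in each direction of at least median level over the 15 libraries, the strongest peak of 8 target genes, up to 4 genes per list by p (of the housekeeping and other-cell marker lists, Actb and Xcr1), the 10 densest peaks, and the extremes of the steroid-raised set. Further peaks are marked in the text as chosen later. The members and lists were chosen with earlier results of these data known. The series' H3K27ac input was not analysed here.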

Additional observations from a re-analysis of the deposited data

How the results depend on the processing

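The count of GR peaks called for IL4 against vehicle was 0 in every alternative run except without vehicle replicate 3, so leaving out 1 library gave 0 to 103. In the fit of batch 2 alone, Cort and Dex against vehicle also gave 0 calls (smallest adjusted p of 0.115 and 0.0807 in edgeR's quasi-likelihood test), so the 0 there says nothing about stability. Against batch 2 steroid, the 440 calls became 216 in a fit of batch 2 alone and 281 when scaled by low-count peaks, and leaving out 1 library gave 278 (without IL4 replicate 1) to 630 (without Cort replicate 4). Against Cort alone, the 701 calls were 0 with batch 2 alone, 383 with batch as an additive term, 393 with all 4 vehicle libraries, 203 with median-of-ratios scaling (48 higher, 155 lower), 334 with total counts, 125 when scaled by low-count peaks (45 higher, 80 lower), 213 without the 1% of peaks with most reads, 445 among peaks marked filtered and 114 to 305 with 1 library left out, while DESeq2 gave 683 and no count filter 802. Against Dex alone, the 434 were 172 with batch 2 alone and 240 to 656 with 1 library left out, and from 320 to 614 in the other fits. The median over the steroid-raised peaks, 0.12, became 0.31 with the 5 compared libraries only, 0.32 with batch as an additive term, 0.25 with all 4 vehicle libraries and no batch term, 0.61 with total counts and 0.25 for peaks with a mean of at least 10 reads, the last chosen after seeing the data. With 1 library left out it ran from 0.026 to 0.21. H3K27ac calls numbered 16538, and 26057 with the replicate block, which pairs libraries of 1 number, and from 11243 to 14470 with 1 library left out. The GR median in H3K27ac peaks that fell was -0.01, and 0.033 with that block. No paired analysis was possible because the IL4 and batch 2 vehicle GR libraries share only replicate number 3.

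Of 93 named peaks, 15 were called without vehicle replicate 3 (Zfp825, Zfy1, Vmn1r2, Adgre1, Speer4e and the 10 densest peaks) and 0 in any other alternative. The sign turned in 19, in no case in a fit that called the peak, although Chl1, Pak3 and Lrrc4c among them belong to the 10 densest peaks called without vehicle replicate 3. With total counts, Fkbp5 was 0.029, Zbtb16 0.50, Cd163 0.29, Chl1 0.021, Pak3 0.022, St3gal5 0.060, C1qc 0.48 and the peak chr2:98665018-98665208 near Lrrc4c 0.039. With batch as an additive term, Zbtb16 was 0.14, Cd163 0.082, Rora -0.50, C1qc 0.20 and the agouti peak a -0.0098. With all 4 vehicle libraries, Cd163 was 0.087, Mindy3 0.20, C1qc 0.15, C1qb -0.010 and Actb -3.59. With the 5 libraries only, Zbtb16 was 0.011 and C1qc 0.029, and with no count filter 0.024 and 0.064. C1qc was 0.036 when scaled by low-count peaks. With batch 2 alone, a was -0.034 and C1qb -0.038. With DESeq2 they were -0.039 and -0.067, and with median-of-ratios scaling -0.062 and -0.070. With 1 library left out, the range was -0.64 to 0.58 at Zbtb16, -0.26 to 0.0077 at Cd163, -0.56 to 1.00 at Dusp1, -2.09 to 1.43 at Hsp90ab1, -0.067 to 1.28 at Rora, -1.06 to 0.0036 at the Lrrc4c peak, -0.66 to 0.43 at Ly86, -0.80 to 1.73 at Irgm1, -0.47 to 0.62 at a, -0.15 to 0.42 at Zp3, -0.37 to 0.21 at C1qc, -0.14 to 0.11 at C1qb and -0.15 to 0.78 at Slc10a6. The cause was not tested.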
